A study of Mus musculus with 2 samples.

Results

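The chemokine ligands and receptors of the mouse were followed in liver sections by spatial transcriptomics (ST), in which probes against the transcriptome are captured on barcoded spots and counted by unique molecular identifier (UMI). Members were all genes whose symbol began with Ccl, Cxcl, Cx3c, Xcl, Xcr, Ccr or Cxcr in the naming pattern of these families. This rule gave 49 of the 19465 genes listed. Of these, 48 are described here as members, 30 ligand genes and 18 receptor genes. The rule used only gene names and no measured value. Some chemokines, such as Ccl19, Ccl21 genes, Cxcl2, Cxcl11 and Cx3cl1, were not analysed here.

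There was 1 library from a mouse without AEG-1 in myeloid cells (AEG-1DMAC) and 1 library from a littermate with the floxed gene intact (AEG-1fl/fl). AEG-1, encoded by Mtdh, is removed in AEG-1DMAC mice by Cre recombinase driven from the Lyz2 locus, which acts in macrophages, monocytes and neutrophils and leaves hepatocytes and most lymphocytes unrecombined. The labels give both mice an age of 27 weeks and HF/HSD, a high fat and high sugar diet, from 7 weeks of age, whereas the methods of the study describe livers of mice on control diet (CD) for this assay. The diet of these 2 mice is therefore uncertain, and it carries the same label in both. The labels give both sections the same slide, and capture area, mouse and genotype cannot be told apart. With 1 library per genotype there was no test and no p-value, and every 95% interval below covers counting error only.

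Chemokines are small secreted proteins that direct the movement of leukocytes, which sense them through G protein-coupled receptors on their surface. Resident macrophages, endothelium, stellate cells and cholangiocytes of the liver release them, and the receptors mark the cell that is drawn: Cxcr3 and Cxcr6 on T cells, Ccr2 on monocytes, Xcr1 on cross-presenting dendritic cells, Cxcr5 on B cells. Cxcl9 and Cxcl10 are classical products of interferon-stimulated cells. A spot covers several cells of different types, so fewer cells of a type and less RNA per cell cannot be told apart.

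After spot filtering, AEG-1DMAC had 2140 spots with 45453286 UMIs and AEG-1fl/fl had 2540 spots with 50322850 UMIs. Levels are given as CPM, the UMIs of a gene scaled to the library total in the usual way, at which 50 UMIs stood for 1.10 and 0.994 CPM. Of the 48 members, 21 had at least 50 UMIs over both libraries and are described gene by gene, 24 had from 1 to 49 UMIs, and Cxcl3, Cxcl15 and Ccr10 had 0 UMIs. At this limit Ccl22 was just inside with 51 UMIs and Ccl2 just outside with 44 UMIs. Each gene is read by its own probes, so UMI numbers are not compared as RNA levels between genes. All members together had 20450 UMIs (449.9 CPM) in AEG-1DMAC and 22193 UMIs (441 CPM) in AEG-1fl/fl. Of these UMIs, Cxcl12 and Ccl9 made up 69.6% and 79.7%.

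Sequence upstream of 4 of the ligand genes is shown because their levels differed between the genotypes and because Cxcl9 and Cxcl10 lie side by side on chromosome 5. The 250 bases before the start site of each gene were taken from RefSeq on GRCm38.p6, and are written 5′ to 3′ on the strand of the gene, at chr5:92328080-92328329 (minus strand), chr5:92348890-92349139 (minus), chr5:90890995-90891244 (plus) and chr11:83578637-83578886 (minus). Capitals mark matches, on either strand, to the letters GAAANNGAA (the core of the interferon-stimulated response element) or GGGANNTTC (an NF-kappaB core). The letters TTCNNNGAA of the gamma-activated site were searched too.
Cxcl9: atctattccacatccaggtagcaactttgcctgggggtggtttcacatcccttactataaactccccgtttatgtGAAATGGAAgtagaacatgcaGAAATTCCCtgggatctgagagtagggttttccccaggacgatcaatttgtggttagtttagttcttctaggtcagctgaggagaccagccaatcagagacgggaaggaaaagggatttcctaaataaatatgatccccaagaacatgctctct
Cxcl10: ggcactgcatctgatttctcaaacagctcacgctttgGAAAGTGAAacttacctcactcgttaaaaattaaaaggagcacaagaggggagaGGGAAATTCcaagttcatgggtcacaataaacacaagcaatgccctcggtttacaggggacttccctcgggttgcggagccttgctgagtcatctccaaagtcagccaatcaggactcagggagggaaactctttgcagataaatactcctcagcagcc
Cxcl1: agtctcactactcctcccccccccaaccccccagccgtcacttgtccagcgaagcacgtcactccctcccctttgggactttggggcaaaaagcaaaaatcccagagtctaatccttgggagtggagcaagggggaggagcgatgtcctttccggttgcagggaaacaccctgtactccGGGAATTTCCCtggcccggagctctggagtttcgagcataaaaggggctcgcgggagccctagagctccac
Ccl9: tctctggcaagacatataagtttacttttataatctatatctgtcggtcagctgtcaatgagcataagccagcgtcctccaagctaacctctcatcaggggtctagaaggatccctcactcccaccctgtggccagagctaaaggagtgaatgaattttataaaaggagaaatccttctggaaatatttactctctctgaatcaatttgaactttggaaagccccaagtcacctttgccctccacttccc
The Cxcl9 sequence held 1 interferon-stimulated match from -175 to -167 and 1 NF-kappaB match from -154 to -146, counted from the start site. In the Cxcl10 sequence the interferon-stimulated match was at -213 to -205 and the NF-kappaB match at -159 to -151. The Cxcl1 sequence held 2 overlapping NF-kappaB matches, from -71 to -63 and from -69 to -61, which are opposite readings of nearly the same bases. No match to the searched letters was in the Ccl9 window, and none of the 4 windows held the gamma-activated letters. Among 32851 RefSeq promoters of 300 bases, which include 50 bases after the start site, 8.56% held the interferon-stimulated letters, 3.94% the NF-kappaB letters and 8.30% the gamma-activated letters. A match describes the letters and is not a measured binding site. Other spellings of these sites were not searched, so unmarked bases are not free of them.

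The main comparison asked which members differed between the genotypes. A gene was called when the ratio of its CPM was at least 1.5 and its 95% interval did not cross 1. Of the 21 members, 8 were higher in AEG-1DMAC (Cxcl9, Cxcl10, Ccl5, Cxcr6, Xcl1, Xcr1, Ccl22 and Cxcl14), where the same rule called 5.7% of the 11867 genes with at least 50 UMIs. Another 3 were lower (Ccl9, Cxcl1 and Cxcr5), against 4.52% of all genes. The median log2 ratio of the 21 members was 0.39, beside 0.12 over all genes, whose 5th and 95th percentiles were -0.56 and 0.63. The median of all genes was above 0, and relative to it 12 members were above and 9 below, with a median of 0.27.

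**Figure D1:**
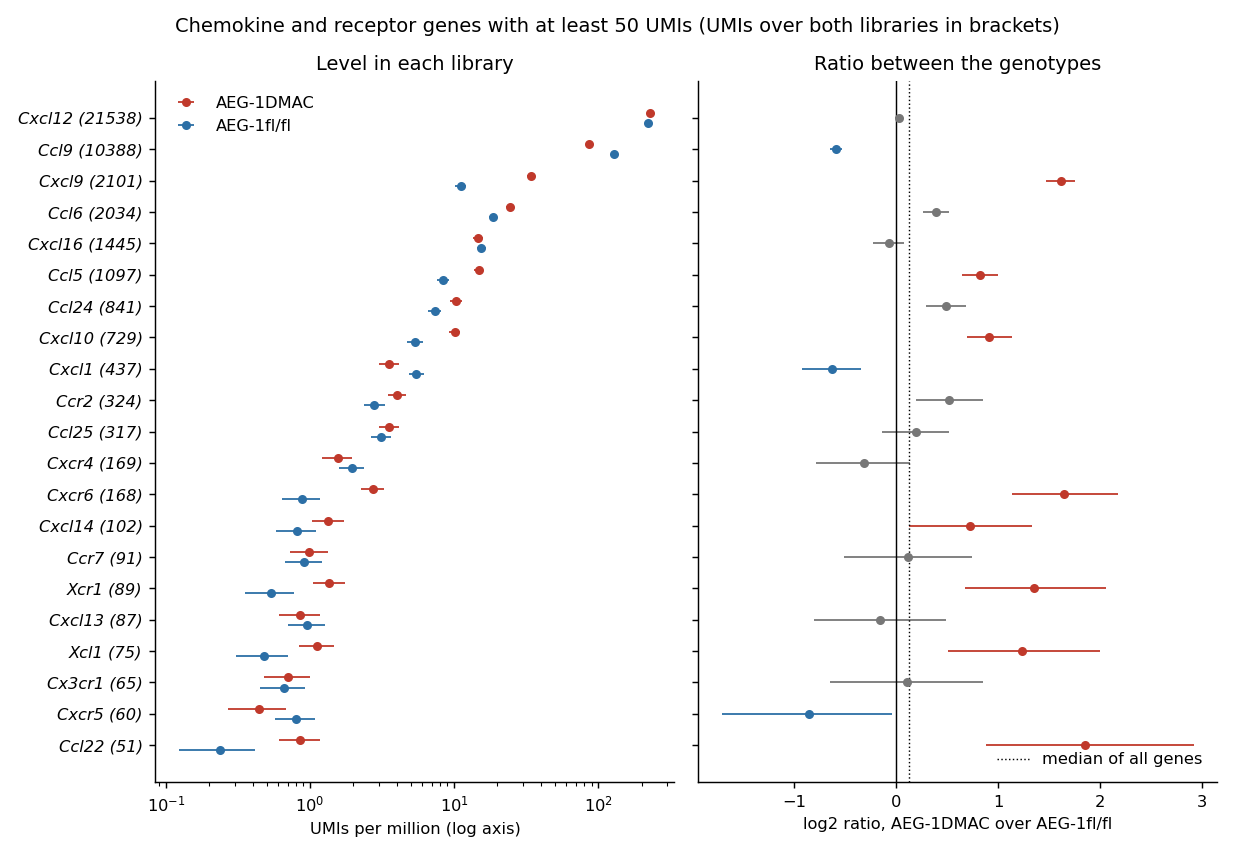
Left, level of each of the 21 members in CPM on a log axis in AEG-1DMAC (red) and AEG-1fl/fl (blue), with 95% Poisson intervals. Right, log2 ratio of the levels with 95% intervals, coloured red where called higher, blue where called lower and grey where neither, with a dotted line at 0.12, the median of all genes. The ratio was largest for Ccl22 (1.85), Cxcr6 (1.64) and Cxcl9 (1.61) and smallest for Cxcr5 (-0.85).

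Marker lists of immune cells also differed between the libraries. The MHC class II list (H2-Aa, H2-Ab1, H2-Eb1 and Cd74) summed to 787 CPM in AEG-1DMAC and 388 CPM in AEG-1fl/fl, with 4 of 4 genes higher. The T cell list was at 20.0 and 10.2 CPM with 6 of 6 genes higher, and the interferon response list at 106 and 72.9 CPM with 5 of 5 higher. In these 2 lists, the log2 ratios of Cd2 (0.24, -0.29 to 0.78) and Rsad2 (0.06, -0.08 to 0.20) had intervals that included 0. The B cell list was at 8.38 and 17.5 CPM with 4 of 4 genes lower. The neutrophil list was at 2.68 and 15.8 CPM with 4 of 4 genes lower, Ly6g being at 0 in AEG-1DMAC. The hepatocyte list (Alb, Apoa1, Ttr and Serpina1a), which holds a large part of all UMIs, was at 139607 and 205610 CPM with 4 of 4 genes lower, a log2 ratio of -0.56. The sum of the Kupffer cell list was 561 and 541 CPM, with 3 genes higher and 2 lower. Of these, Marco, a scavenger receptor, stood apart at 13.9 and 36.1 CPM, a log2 ratio of -1.38, and the other 4 lay between -0.07 and 0.21. The sums of the vessel wall, bile duct, portal fibroblast, sinusoidal endothelium and stellate cell lists had log2 ratios from -0.02 to 0.05, yet single genes in them ran from -0.91 for Sox9 of the bile duct list to 1.47 for Cnn1 of the vessel wall list. The part of these lists in the member ratios was not tested.

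Cxcl9 (chromosome 5, 92321347 to 92328079, minus strand) and Cxcl10 (chromosome 5, 92346638 to 92348889, minus strand) encode ligands of Cxcr3, the receptor of activated T cells and natural killer cells. Cxcl9 had 1542 UMIs, or 33.9 CPM (95% interval 32.3 to 35.7), in AEG-1DMAC and 559 UMIs, or 11.1 CPM (10.2 to 12.1), in AEG-1fl/fl. This was a 3.05-fold higher level in AEG-1DMAC, a log2 ratio of 1.61 (1.47 to 1.75). Cxcl10 had 459 UMIs (10.1 CPM) and 270 UMIs (5.37 CPM), with a log2 ratio of 0.91 (0.69 to 1.13). Both ligands were higher in AEG-1DMAC in each of the 3 parts of the lobule, with log2 ratios of 1.43, 1.41 and 2.08 for Cxcl9 and 1.34, 0.51 and 0.93 for Cxcl10 from zone 1 to zone 3. Cxcr3 itself had 28 and 15 UMIs and fell below the limit of 50.

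Ccl5 (RANTES), a T cell and natural killer cell product that attracts T cells and monocytes, had 674 UMIs (14.8 CPM) in AEG-1DMAC and 423 UMIs (8.41 CPM) in AEG-1fl/fl, giving a log2 ratio of 0.82 (0.64 to 0.998). By lobule part the ratio of Ccl5 was 0.85 in zone 1, 0.64 in the middle and 0.98 in zone 3. The inflammatory chemokines Ccl3 and Ccl4 were sparse, with 6 and 15 UMIs for Ccl3 and 8 in each library for Ccl4.

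Cxcr6, a receptor of liver-resident T cells and natural killer T cells, had 124 UMIs (2.73 CPM) in AEG-1DMAC and 44 UMIs (0.874 CPM) in AEG-1fl/fl. The log2 ratio was 1.64 (1.13 to 2.17), and it was above 1 in each part of the lobule. Cxcl16, its membrane-bound ligand, had 668 UMIs (14.7 CPM) and 777 UMIs (15.4 CPM), with a log2 ratio of -0.07 (-0.22 to 0.08). Receptor and ligand therefore stood apart in this pair, with only the receptor called.

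Xcl1 (lymphotactin), made by natural killer cells and CD8 T cells, had 51 UMIs (1.12 CPM) in AEG-1DMAC and 24 UMIs (0.477 CPM) in AEG-1fl/fl, giving a log2 ratio of 1.23 (0.51 to 1.999). Its receptor Xcr1, which marks the cross-presenting class of dendritic cells, had 62 UMIs (1.36 CPM) and 27 UMIs (0.537 CPM), with a log2 ratio of 1.35 (0.67 to 2.06). Ccl22, a product of mature dendritic cells and macrophages that attracts Ccr4-bearing T cells, had 39 UMIs (0.858 CPM) and 12 UMIs (0.238 CPM). The log2 ratio of Ccl22 was 1.85 with a wide interval of 0.88 to 2.92, and its receptor Ccr4 had 1 UMI in each library. Cxcl14, an epithelial chemokine, had 61 UMIs (1.34 CPM) and 41 UMIs (0.815 CPM), with a log2 ratio of 0.72 (0.13 to 1.33).

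Ccl9 (chromosome 11, 83572919 to 83578636, minus strand), a Ccr1 ligand of macrophages and other myeloid cells, was the most densely counted of the lower members. It had 3903 UMIs, or 85.9 CPM (83.2 to 88.6), in AEG-1DMAC and 6485 UMIs, or 129 CPM (126 to 132), in AEG-1fl/fl. The level was 1.501-fold lower in AEG-1DMAC, at the limit of the rule, with a log2 ratio of -0.59 (-0.64 to -0.53) and of -0.71 relative to the median of all genes. Ccl6, its neighbour on the same strand at 83587882 to 83593087 and also a Ccr1 ligand, lay on the other side of 0. It had 1103 UMIs (24.3 CPM) in AEG-1DMAC and 931 UMIs (18.5 CPM) in AEG-1fl/fl, giving a log2 ratio of 0.39 (0.26 to 0.52) that did not reach 1.5-fold. Ccl5, at 83525778 to 83530518 beside them, was higher as given above. Their receptor Ccr1 had 6 UMIs in each library.

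Cxcl1, which draws neutrophils through Cxcr2, had 161 UMIs (3.54 CPM) in AEG-1DMAC and 276 UMIs (5.48 CPM) in AEG-1fl/fl. Its log2 ratio was -0.63 (-0.92 to -0.35), with -0.86 in zone 1, -0.66 in the middle and -0.02 in zone 3. Cxcr2 had 10 and 9 UMIs. Cxcr5, the follicle-homing receptor of B cells, had 20 UMIs (0.440 CPM) and 40 UMIs (0.795 CPM), with a log2 ratio of -0.85 whose interval of -1.71 to -0.04 came close to 0. Cxcl13, the ligand of Cxcr5, had 39 and 48 UMIs, the log2 ratio being -0.15 (-0.80 to 0.49).

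Members that were not called included the most densely counted gene. Cxcl12 (chromosome 6, 117168535 to 117181367, plus strand), a stromal and endothelial chemokine that retains leukocytes and progenitors, had 10339 UMIs (227 CPM) in AEG-1DMAC and 11199 UMIs (223 CPM) in AEG-1fl/fl. Its log2 ratio was 0.03 (-0.01 to 0.07), and -0.09 relative to the median of all genes. Cxcr4, the receptor of Cxcl12, had 71 and 98 UMIs, the log2 ratio being -0.32 (-0.78 to 0.14). Ccl24 (eotaxin-2), a macrophage product that attracts eosinophils, had 470 UMIs (10.3 CPM) and 371 UMIs (7.37 CPM), with a log2 ratio of 0.49 (0.29 to 0.69). Ccr2, the receptor of inflammatory monocytes, had 183 UMIs (4.03 CPM) and 141 UMIs (2.80 CPM), with a log2 ratio of 0.52 (0.20 to 0.85). Both intervals excluded a ratio of 1, yet both ratios were under 1.5-fold. Ccl25, a gut-homing chemokine, had 161 and 156 UMIs with a log2 ratio of 0.19 (-0.13 to 0.52). Ccr7, the lymph node-homing receptor, had 45 and 46 UMIs with 0.12 (-0.51 to 0.74), and Cx3cr1, the fractalkine receptor of patrolling monocytes, had 32 and 33 UMIs with 0.10 (-0.65 to 0.85), and relative to the median of all genes both turned to -0.01 and -0.02. The interval of Ccl25 excluded a 1.5-fold difference in either direction, whereas those of Cxcr4, Ccr7, Cxcl13 and Cx3cr1 each held 1.5-fold in at least 1 direction.

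Other genes of the pathway were read from a list of 16, of which 15 had at least 50 UMIs. Under the same rule 2 were higher, 1 was lower and 12 were not called, where 5.7% of all genes were higher and 4.52% lower. Ackr3, a scavenger of Cxcl12, had 79 UMIs (1.74 CPM) in AEG-1DMAC and 55 UMIs (1.09 CPM) in AEG-1fl/fl, giving a log2 ratio of 0.67 (0.15 to 1.19). Cd74, the invariant chain and a receptor of Mif, was at 472 and 248 CPM, with a log2 ratio of 0.93, and is also in the MHC class II list above. Ackr1, a vascular chemokine-binding receptor, had 70 UMIs (1.54 CPM) and 140 UMIs (2.78 CPM), with a log2 ratio of -0.85 (-1.29 to -0.43). Gpr182, a scavenging receptor of sinusoidal endothelium, had 2877 UMIs (63.3 CPM) and 4409 UMIs (87.6 CPM), with a log2 ratio of -0.47 (-0.54 to -0.40) that was under 1.5-fold. Chemerin (Rarres2), Mif, Dpp4, Gnai2 and Arrb2 had log2 ratios from -0.15 to 0.19.

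Position along the lobule was read within each library from marker RNA. Spots were ranked by zone 3 markers (Cyp2e1, Cyp1a2 and Oat) minus those of zone 1 (Arg1, Cyp2f2, Gls2, Hal, Hsd17b13 and Pck1) and divided into 3 equal parts, zone 1 being next to the portal tract and zone 3 around the central vein. As a check on genes outside the index, 5 zone 3 landmarks had log2 ratios of zone 3 over zone 1 from 1.95 to 3.29 and 6 zone 1 landmarks from -2.03 to -0.07. No member was enriched at least 1.5-fold towards zone 3 in both libraries, where 2.08% of genes were. Towards zone 1, 3 of 21 members were enriched in both (Cxcl1, Cxcr4 and Xcr1), against 2.11% of genes. Under 3 alternative settings (an index from the landmark genes, the outer 20% of spots at each end, and no vessel wall-rich or bile duct-rich spots) Cxcl1 was called each time, Xcr1 with the landmark index only and Cxcr4 with none.

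Cxcl1 had 69, 54 and 38 UMIs from zone 1 through the middle to zone 3 in AEG-1DMAC, and 137, 97 and 42 UMIs in AEG-1fl/fl. The log2 ratio of zone 3 over zone 1 was -0.85 (-1.46 to -0.26) and -1.69 (-2.22 to -1.18). In zone 3 the libraries had nearly equal levels of 2.53 and 2.57 CPM, whereas in zone 1 they had 4.57 and 8.27 CPM. Xcr1 had 32, 16 and 14 UMIs in AEG-1DMAC and 16, 9 and 2 UMIs in AEG-1fl/fl, with zone ratios of -1.18 and -2.98. Cxcr4 had 34, 21 and 16 UMIs, and 40, 38 and 20 UMIs, with zone ratios of -1.08 and -0.98.

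Ccl9 declined from zone 1 to zone 3 in both libraries, at 111, 87.3 and 59.5 CPM in AEG-1DMAC and 144, 138 and 104 CPM in AEG-1fl/fl. The zone ratio passed 1.5-fold in AEG-1DMAC (-0.90, -1.01 to -0.78) and not in AEG-1fl/fl (-0.46, -0.55 to -0.37). Ccl24 had zone ratios of -0.48 and -0.88, Cxcr6 of -0.53 and -2.04, and Cxcl14 of -1.80 and -0.33. Each of these 4 genes passed the limit in 1 library only, and the difference between the libraries in position was not tested. Cxcl12 was even across the lobule, with zone ratios of 0.05 and 0.16, and Cxcl9, Cxcl10, Ccl5 and Cxcl16 had zone ratios between -0.56 and 0.43.

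**Figure D2:**
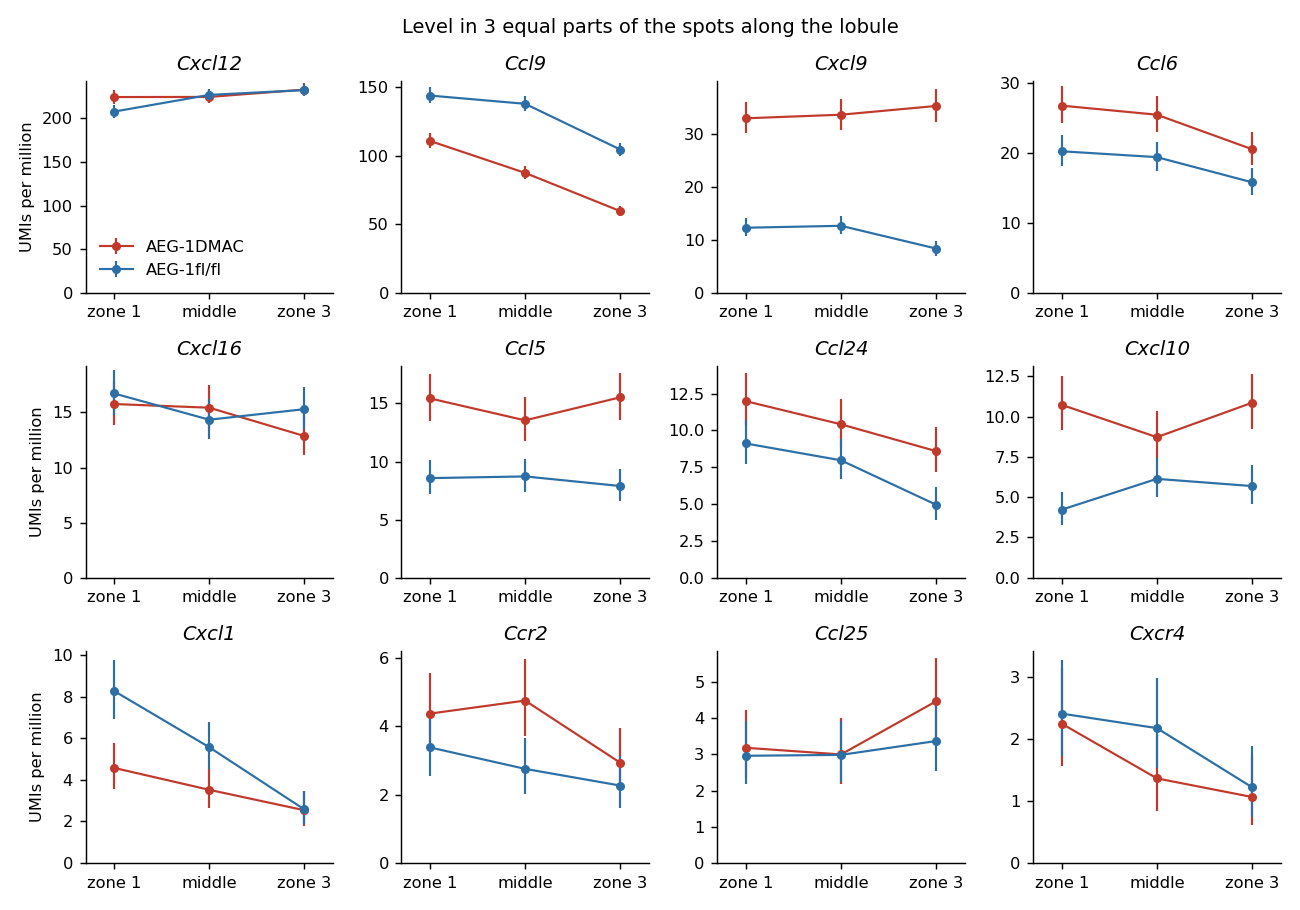
Level in CPM of 12 members in zone 1, middle and zone 3 spots of AEG-1DMAC (red) and AEG-1fl/fl (blue), with 95% Poisson intervals and axes from 0. Ccl9 declined towards zone 3 in both libraries, Cxcl12 stayed even, and the Cxcl1 lines met in zone 3 at 2.53 and 2.57.

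Neighbouring structures were read from spots rich in a marker list, taken as the 10% of spots of a library with the highest level of that list. Around vessel walls, marked by the smooth muscle genes Acta2, Tagln, Myh11, Cnn1 and Myl9, 4 of 21 members were enriched at least 1.5-fold in both libraries (Ccr2, Cxcr4, Xcr1 and Cx3cr1), against 4.21% of all genes. Around bile ducts, marked by Epcam, Krt7, Krt19, Sox9 and Spp1, there were 6 (the same 4 with Cxcr6 and Ccl22), against 5.59% of genes. In portal fibroblast-rich spots there were 5 (Ccr2, Cxcr4, Xcr1, Cx3cr1 and Ccl22), against 7.19%. These 3 kinds of spot overlap, and between 44.5% and 62.6% of them lay in zone 1, so they do not give independent positions.

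Cx3cr1 had 17 of its 32 UMIs in vessel wall-rich spots of AEG-1DMAC and 12 of 33 in those of AEG-1fl/fl, log2 ratios over the other spots of 3.29 (2.20 to 4.39) and 2.39 (1.23 to 3.48). Xcr1 had 22 of 62 UMIs and 13 of 27 UMIs there, with 2.24 (1.42 to 3.03) and 3.09 (1.88 to 4.29). For Ccr2 the values were 55 of 183 UMIs and 27 of 141 UMIs, with 1.89 (1.40 to 2.35) and 1.12 (0.45 to 1.73). Cxcr4 was at 3.17 against 1.38 CPM elsewhere in AEG-1DMAC and 3.83 against 1.74 CPM in AEG-1fl/fl. All of these are receptors, and no ligand was called at vessel walls in both libraries. The ligands Xcl1, Cxcl14 and Ccl22 were above 1.5-fold there in both, on 5 to 10 UMIs per library. Their intervals included a ratio of 1 in at least 1 library, so these counts do not separate ligands from receptors. Cxcl12 was slightly raised there, with log2 ratios of 0.23 and 0.10.

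Around bile ducts, Xcr1 had log2 ratios of 2.36 and 3.14, Cx3cr1 of 2.49 and 2.77, Ccl22 of 1.88 and 2.54, Ccr2 of 1.78 and 1.74, Cxcr6 of 1.24 and 1.61, and Cxcr4 of 1.07 and 1.07. Cxcl1 was at 10.4 CPM in the bile duct-rich spots of AEG-1fl/fl against 4.88 CPM elsewhere (1.09, 0.64 to 1.51) and at 5.25 against 3.36 CPM in AEG-1DMAC (0.64, -0.06 to 1.29). Cxcl9 differed in direction, at 20.8 against 35.3 CPM in AEG-1DMAC (-0.77, -1.09 to -0.46) and 15.1 against 10.6 CPM in AEG-1fl/fl (0.51, 0.16 to 0.85). The AEG-1DMAC value depended on how many spots were taken as rich, and was 0.06 with 20% of spots. It was not particular to bile ducts. In AEG-1DMAC, Cxcl9 was at -0.68 in vessel wall-rich and portal fibroblast-rich spots, -0.67 in sinusoidal endothelium-rich and -1.08 in hepatocyte-rich spots. It was raised in spots rich in the MHC class II, T cell, B cell and interferon response lists.

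Kupffer cell-rich spots, marked by Clec4f, Vsig4, Cd5l, Timd4 and Marco, held a different set. Ccl6 was enriched in both libraries, 1 of 21 members against 0.885% of genes. Its level was 37.9 against 22.8 CPM in AEG-1DMAC and 31.3 against 17.3 CPM in AEG-1fl/fl, log2 ratios of 0.73 and 0.86. Ccl24 had 0.57 and 0.69, the first just under 1.5-fold. Ccl9, also a myeloid product, was not raised in these spots, with 0.14 (-0.02 to 0.29) and 0.06 (-0.07 to 0.18). In hepatocyte-rich spots it was at 107 against 83.7 CPM and 149 against 127 CPM, log2 ratios of 0.35 (0.21 to 0.49) and 0.23 (0.11 to 0.34). Of the hepatocyte-rich spots, 1.87% and 5.91% lay in zone 3, where Ccl9 was lowest, so this position is not independent of the lobule. No member was enriched in sinusoidal endothelium-rich spots in both libraries, where 0.0843% of genes were.

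Spots rich in MHC class II RNA held the most members. There, 10 of 21 were enriched in both libraries (Cxcl9, Cxcl10, Cxcl16, Ccl5, Ccl22, Ccr2, Cxcr4, Cxcr6, Xcr1 and Cx3cr1), against 6.52% of genes. Xcr1 had 35 of 62 UMIs and 17 of 27 UMIs in these spots, log2 ratios of 3.56 (2.79 to 4.34) and 3.98 (2.77 to 5.27). Ccl22 had 22 of 39 and 6 of 12 UMIs, with 3.56 and 3.22, and Cx3cr1 had 21 of 32 and 10 of 33 UMIs, with 4.12 and 2.01. Outside these spots Cx3cr1 had a genotype log2 ratio of -0.91, on few UMIs, whereas Cxcl9, Ccl5 and Cxcl10 had 1.42, 0.72 and 0.81 and were still called. Those other spots still had the MHC class II list at 629 CPM in AEG-1DMAC and 310 CPM in AEG-1fl/fl. The genotype difference in this list was therefore not removed, and its part in these ratios was not tested. In T cell-rich spots 6 of 21 were enriched in both (Cxcl9, Cxcl10, Ccl5, Ccr2, Cxcr6 and Cx3cr1), against 1.75% of genes. Ccl5 was at 40.0 against 12.1 CPM there in AEG-1DMAC and 17.7 against 7.49 CPM in AEG-1fl/fl, and Cxcr6 had log2 ratios of 1.78 and 1.57.

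**Figure D3:**
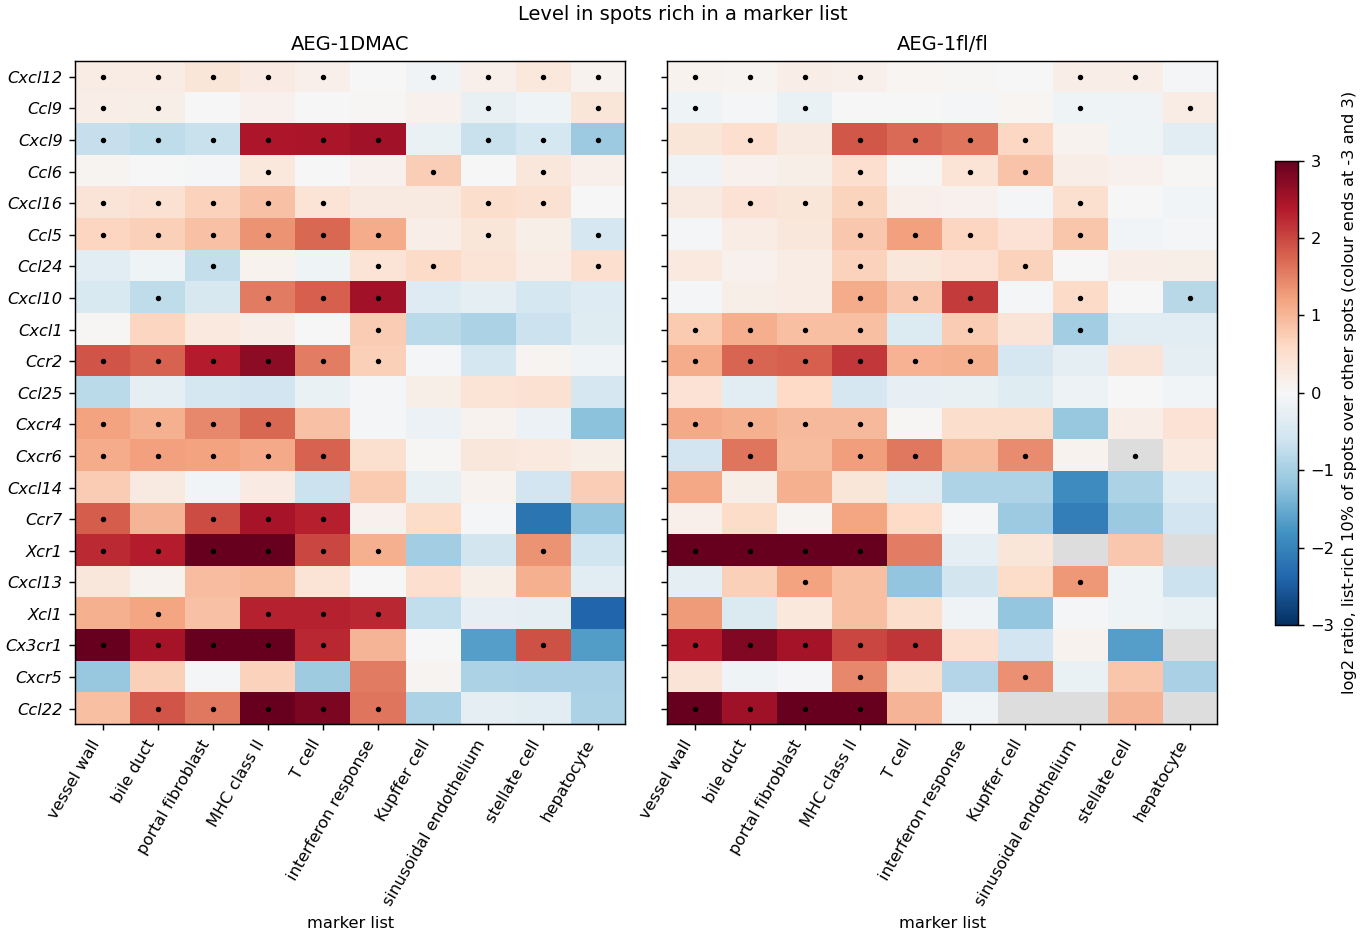
Log2 ratio of the level of each of the 21 members in the 10% of spots richest in a marker list over the other spots, in AEG-1DMAC (left) and AEG-1fl/fl (right). Dots mark intervals that exclude 0, grey marks no UMI in the rich spots, and colour ends at -3 and 3. Ccr2, Cxcr4, Xcr1 and Cx3cr1 were raised in the 4 left columns of both panels, and Cxcl9 and Cxcl10 in the MHC class II, T cell and interferon response columns. Ccl5, Cxcl1 and Ccr2 were also raised in the interferon response column of both panels, with log2 ratios from 0.65 to 1.12. The share of all genes raised in that column is not given here.

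Spread over single spots was read as well. Cxcl12 had a UMI in 98.2% of AEG-1DMAC spots and 96.8% of AEG-1fl/fl spots, Ccl9 in 80.6% and 86.7%, and Cxcl9 in 26.2% and 16.4%. When each spot was thinned to 10000 UMIs, which left 2114 and 2434 spots, Cxcl9 was seen in 15.4% (13.9 to 17.0, exact binomial) and 9.20% (8.08 to 10.4). The 1% of spots with the most Cxcl9 held 41.8% of its UMIs in AEG-1DMAC and 25.6% in AEG-1fl/fl. For Cxcl10 the shares were 41.8% and 30.4%, for Ccl5 15.4% and 18.0%, for Ccl9 3.97% and 3.84%, and for Cxcl12 2.91% and 3.20%. This share rises as the UMIs of a gene fall, so genes with unlike UMI numbers cannot be ranked by it. In AEG-1DMAC, Cxcl14 with 61 UMIs had 37.7%, though no spot held more than 2 of them. At similar numbers there, Cxcl16 with 668 UMIs had 8.68%, beside 15.4% for Ccl5 with 674 UMIs. The highest single spot had 141 and 57 UMIs of Cxcl9, 23 and 15 UMIs of Cxcl10, and 19 and 20 UMIs of Cxcl12.

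**Figure D4:**
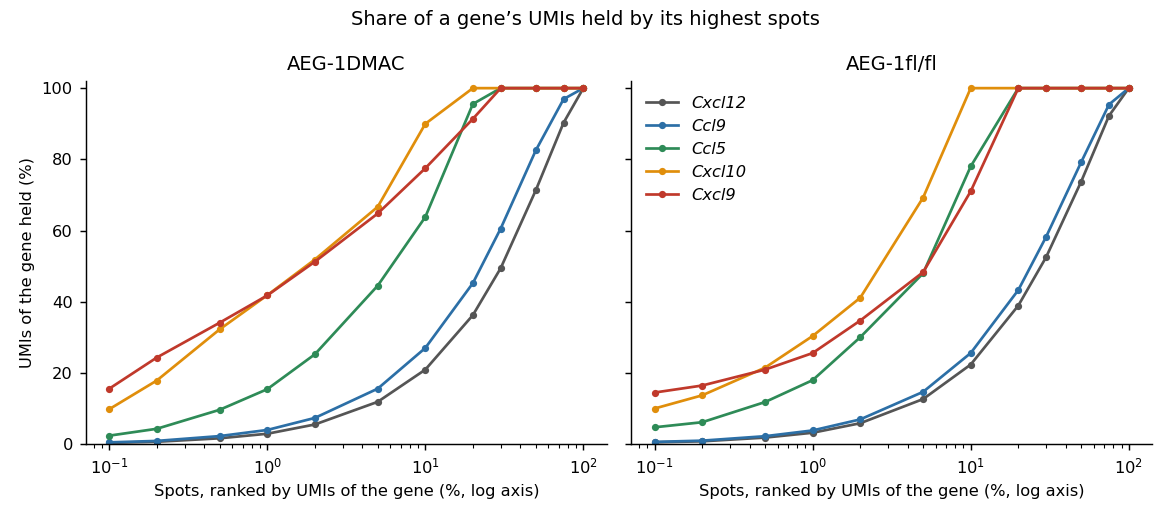
Share of the UMIs of a gene (y, %) held by its highest spots (x, % of spots on a log axis) in AEG-1DMAC (left) and AEG-1fl/fl (right) for 5 ligands. Cxcl9 and Cxcl10 rise early, with 41.8% of each in the top 1% of AEG-1DMAC spots, and Cxcl12 and Ccl9 rise late. Curves of genes with fewer UMIs rise earlier in part because of their counts.

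Spots with at least 10 UMIs of Cxcl9 were then described, a limit chosen after the values were seen, so that Cxcl9 itself is no result here. There were 19 such spots in AEG-1DMAC (0.888% of spots, 627 UMIs of Cxcl9) and 2 in AEG-1fl/fl (73 UMIs). Of the 19, 7 lay in zone 1, 4 in the middle and 8 in zone 3. Among the same 19 spots, 8 were MHC class II-rich, 7 T cell-rich, 1 vessel wall-rich, 1 bile duct-rich and 0 Kupffer cell-rich.

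Several other members were high in the 19 Cxcl9-rich spots of AEG-1DMAC. The share of all genes that were high in these spots is not given here. Cxcl10 was at 299.5 CPM (131 UMIs) against 7.29 CPM in the other spots, a 41.1-fold ratio. Xcl1 had 12 of its 51 UMIs there, a log2 ratio of 4.99 (3.92 to 5.95), and Ccl22 had 10 of its 39 UMIs, with 5.15 (3.95 to 6.23). Ccl5 was at 101 against 14.0 CPM (2.85, 2.37 to 3.29), Cxcr6 had 7 UMIs (2.62, 1.28 to 3.71) and Ccl24 had 15 UMIs (1.76, 0.91 to 2.50). On few UMIs, Ccr7 had 3 (2.88, 0.54 to 4.52) and Ccr2 had 6 (1.80, 0.34 to 2.95). The T cell list was at 96.0 against 19.3 CPM and the MHC class II list at 1422 against 781 CPM. The interferon response list was at 281 against 104 CPM, and the B cell list at 22.9 against 8.24 CPM on 10 UMIs. The Kupffer cell list was lower, at 311 against 563 CPM. Lower too were the lists of vessel wall, bile duct, portal fibroblast, sinusoidal endothelium, stellate cell and hepatocyte. The neutrophil list had 2 UMIs there. Cxcl12 (-0.26, -0.59 to 0.05) and Ccl9 (0.33, -0.12 to 0.74) did not differ from the other spots beyond counting error. Xcr1 had 1 UMI and Cx3cr1 0 UMIs in these spots, too few to place them. Without the Cxcl9-rich spots of both libraries, the genotype log2 ratio of Cxcl10 was 0.52, no longer 1.5-fold, and those of Ccl5, Xcl1 and Ccl22 were 0.75, 0.92 and 1.43. This took 19 spots from AEG-1DMAC and 2 from AEG-1fl/fl, so the falls follow in part from the choice of spots.

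**Figure D5:**
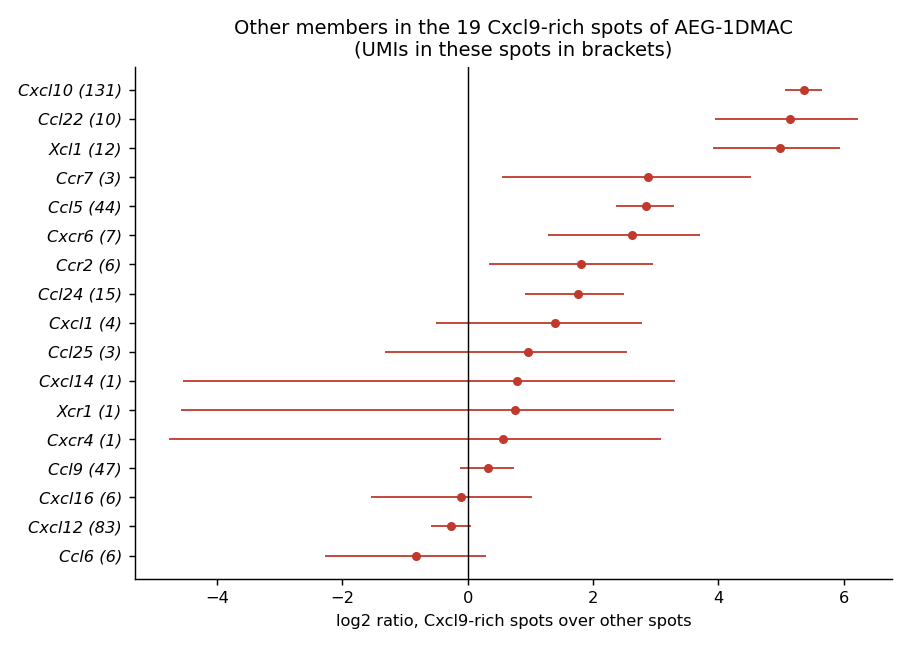
Log2 ratio of the level of each other member with a UMI there in the 19 Cxcl9-rich spots of AEG-1DMAC over its other spots, with 95% intervals and the UMIs in these spots in brackets. Cxcl10, Ccl22 and Xcl1 lie near 5, and the intervals of Cxcl12, Ccl9 and Ccl6 include 0.

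The 24 members with 1 to 49 UMIs comprised 14 ligands and 10 receptors. Of these, 15 had 10 to 49 UMIs and 9 had fewer, among them Ccr4, Ccr8, Cxcr1 and Ccl20. Ccl2, the ligand of Ccr2, had 15 UMIs in AEG-1DMAC and 29 UMIs in AEG-1fl/fl, giving a log2 ratio of -0.80 (-1.81 to 0.14). For members at 0 UMIs the upper limit, at 3 UMIs, was 0.0660 CPM in AEG-1DMAC and 0.0596 CPM in AEG-1fl/fl.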

How the data were processed

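ST was done by the authors with Visium for formalin-fixed, paraffin-embedded tissue. The submitters' processing notes name Space Ranger 2.0.1, Seurat 4.3.0 and mm10. The deposited matrices hold, for each spot, the unnormalised UMI count of every gene. Spots with at most 50000 UMIs and 100 to 7000 genes were kept, as in the methods of the study, which removed 9 of 2149 and 3 of 2543 spots. The median spot then had 20929.5 UMIs and 4096 genes (AEG-1DMAC) or 18285 UMIs and 3638.5 genes (AEG-1fl/fl). The libraries shared 1782 barcodes, which in this assay name positions on a slide. Where each spot lay on the slide was not used here.

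UMIs were summed per library, lobule part or spot class and divided by the corresponding total. CPM had exact Poisson intervals, shares of spots exact binomial intervals, and ratios exact conditional binomial (Clopper-Pearson) intervals, all at 95%. UMIs of a section are not independent of mouse or section. Marker lists were averaged over scaled log-normalised values. Glul and Isg15, planned as markers, were not used. The calculation of ratios was tested on simulated data. Every member with at least 50 UMIs is named, except that 1 gene matching the rule is not reported here and enters no count of members. Members and lists were chosen with earlier results of these data known. Coordinates came from GENCODE M21 (GRCm38, the assembly of mm10), which matched all 48 members. Alternatives were other scalings (TMM from edgeR 4.0.16 in R 4.3.3), minimum counts, folds, indices and spot classes. Python 3.11.15, scipy 1.17.1 and pandas 2.3.3 were used.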

Additional observations from a re-analysis of the deposited data

How the results depend on the processing

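No paired analysis was possible because each genotype had 1 library, and for the same reason no library could be left out. No genotype ratio of a called member reversed under any alternative run. Of the 8 members called higher, 5 were called at 2-fold, and of the 3 lower, 0. A minimum of 200 UMIs left 11 members to be called, with 3 higher and 2 lower. The share of all genes called is given for the main rule only, so none stands beside the counts of this paragraph. With TMM factors the same 8 were higher, and with median-of-ratios factors or a total without the 50 most abundant genes 7 were (without Cxcl14). All 3 lower calls held under these scalings. The median ratio of the members, 0.39, was 0.27 with TMM factors, 0.26 with median-of-ratios factors, 0.25 without the 50 most abundant genes, 0.51 with at least 20 UMIs, 0.29 without Cxcl9-rich spots and 0.27 after subtracting the median of all genes. The near-zero ratio of Cxcl12 was -0.09 with TMM factors. With at least 20 UMIs, 30 members were tested, and Cxcr3, Ccl8 and Ccl28 were added as higher and Ccr6 as lower. After the data were seen, 2 further sets of spots were left out. Without Cxcl9-rich spots, 20 members kept 50 UMIs and 6 were higher. Cxcl9 was among them, and its value there follows from the choice of spots. Cxcl10 was not, its ratio being under 1.5-fold, nor Ccl22, which had fewer than 50 UMIs left. Both were high in the spots left out of AEG-1DMAC, so these changes follow in part from the choice too. Without MHC class II-rich spots 6 were higher and 1 lower, since 17 members kept 50 UMIs and Cxcl1 was at -0.54. Without vessel wall-rich and bile duct-rich spots, 1 of the 3 zone 1 members, Cxcl1, was enriched. An index from the landmark genes gave Cxcl1, Xcr1 and Cx3cr1, and the outer 20% of spots gave Ccl9, Ccl24 and Cxcl1. The bile duct ratio of Cxcl9 in AEG-1DMAC, -0.77, was 0.064 with 20% of spots, and the cause was not tested. Taking 5% of spots as rich moved 5 vessel wall and 6 bile duct ratios beyond their intervals with no change of side. Thinning to 5000 UMIs moved 33 of 42 shares of spots. Such shares fall whenever fewer UMIs are drawn, so this count does not bear on the comparison of the libraries. Depth limits the members under about 200 UMIs, whose intervals are wide.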

Other observations

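Among the members under 50 UMIs, 6 had all their UMIs in 1 library and were picked out after their values were seen. The share of all genes with UMIs in 1 library only is not given here, so how unusual these members are cannot be said. Of these, Ccl20, Ccl26 and Cxcl17 had 1 UMI each. Ccl8, a monocyte-attracting chemokine, had 42 UMIs in 29 spots of AEG-1DMAC and 0 in AEG-1fl/fl. With 3 UMIs put in place of 0, its level was 15.5-fold higher in AEG-1DMAC. This value leaves out the counting error of the 42 UMIs and is not a lower bound. Of the 42, 20 lay in zone 1, 19 in the middle and 3 in zone 3, with 31 in portal fibroblast-rich, 29 in MHC class II-rich, 27 in bile duct-rich, 21 in vessel wall-rich and 1 in Kupffer cell-rich spots. These classes of spot overlap. Its neighbours on chromosome 11 did not share this, with 21 and 15 UMIs for Ccl7, 18 and 13 for Ccl12 and 6 and 5 for Ccl11. Ccl17, a Ccr4 ligand like Ccl22, had 11 UMIs in 11 spots of AEG-1DMAC and 0 in AEG-1fl/fl, 4.06-fold higher on the same basis. Ccl1 had 0 UMIs in AEG-1DMAC and 6 in AEG-1fl/fl, 1.81-fold lower on the same basis and on too few UMIs to size the difference.

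Ccr6, a receptor of B cells and some T cells, had 5 UMIs in AEG-1DMAC and 22 in AEG-1fl/fl, giving a log2 ratio of -1.99 (-3.75 to -0.55), on the same side as Cxcr5 and the B cell list. Ccl28, a mucosal epithelial chemokine, had 24 and 8 UMIs, a log2 ratio of 1.73 (0.53 to 3.10), and Cxcr3 had 1.05 (0.09 to 2.06). Whether these genes follow from cell numbers in the sections was not tested.

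The 2 Cxcl9-rich spots of AEG-1fl/fl held 15 UMIs of Cxcl10, at 612 CPM against 5.07 CPM in the other spots, and 4 of Ccl5. Both were MHC class II-rich and T cell-rich, 1 was bile duct-rich and 1 Kupffer cell-rich. The Kupffer cell list was at 897 against 540 CPM in these spots, on 22 UMIs. With 2 spots no comparison with the 19 of AEG-1DMAC was made.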
